A study of Mus musculus with 14 samples.

Results

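The ErbB receptors Egfr, Erbb2, Erbb3 and Erbb4 and their cytoplasmic inhibitor Errfi1 were followed across mouse duodenum with and without Lrig1. Each gene was read by the transcript cluster (a set of short probes along a transcript) that the array annotation assigns to it alone. This gave 5 genes of the 19938 in the table, each with 1 such cluster. A further cluster assigned to both Erbb2 and Sympk was left out by this rule. The arrays held 3 groups on a mixed background of 129S7/SvEv and C57/BL6. The wildtype group was proximal duodenum of 3 mice with intact Lrig1. The tumor group was duodenal adenomas of 6 mice with the genotype Lrig1-CreERT2/CreERT2, in which an inserted CreERT2 cassette replaces both working copies of Lrig1 in every cell of the body. The adjacent group was normal duodenum of 5 of those 6 mice, so that adjacent replicates 1 to 5 share a mouse with tumor replicates 2 to 6 in that order, and tumor replicate 1 has no partner. The labels call the mice age-matched and give no age, and they name no treatment. Tumor and adjacent tissue share the null genotype, so only comparisons with wildtype tissue differ in Lrig1.

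ErbB receptors are tyrosine kinases that pair on the cell surface once a ligand of the EGF or neuregulin family is bound, and then phosphorylate each other's tails. EGFR and ERBB4 bind ligand and have an active kinase, ERBB2 has no known ligand of its own and serves as a preferred partner, and ERBB3 binds neuregulins but has little kinase activity and signals through PI3K docking sites. ERRFI1 (also called MIG6 or RALT) binds the active kinase domain, blocks it and steers the receptor to the lysosome, whereas LRIG1 acts on the receptors at the membrane. In the gut, EGFR signalling drives growth of crypt cells and is restrained by these inhibitors.

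Values are log2 array signal, on which a difference of 1 is a doubling. They are given as mean ± SD, and differences as log2 change ± SE from a limma fit over all genes, called at an adjusted p below 0.05. Signals of different genes cannot be ranked against each other, because probes differ in brightness. As a check on the labels, Lrig1 was at 9.03 ± 0.71 (n = 3) in wildtype, 7.20 ± 0.17 (n = 5) in adjacent tissue and 8.07 ± 0.32 (n = 6) in tumors. The check separated adjacent from wildtype tissue in every array, but not tumors: null tumor replicates 3 and 4, at 8.54 and 8.29, lay above wildtype replicate 3 at 8.22, so Lrig1 signal does not bear out the null label of those 2 arrays against that one. Lrig1 was higher in the tumor in 5 of 5 pairs, by 0.88 ± 0.17 (adjusted p = 0.00102). Whether its probes lie in the disrupted part is not known here. The mean of 8 epithelial markers lay between 12.5 and 13.0 in every array, although 4 of them rose and 2 fell in tumors against adjacent tissue. The mean of 8 pancreatic acinar genes was 13.4 to 14.2 in wildtype replicates 1 and 3 and adjacent replicates 1 and 2, 6.94 to 7.19 in the other 4 non-tumor arrays, and 7.09 to 9.98 in tumors. Wildtype replicate 1 also carried gastric pit markers at 13.7 and mast cell markers at 9.26. These lay within the tumors' ranges of 12.1 to 14.1 and 8.58 to 9.72, while the other wildtype arrays were at 7.26 and 7.58 for pit markers and 6.24 and 5.89 for mast cell markers.

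Of the 5 genes, Egfr rose and Erbb3 fell in tumors against adjacent tissue, where 31.7% of all genes passed the test, 19.1% higher and 12.6% lower. Egfr rose 2.33-fold (95% confidence interval 1.88 to 2.88), whereas Erbb3 changed to 0.787 of its adjacent level (0.667 to 0.928). Erbb2, Erbb4 and Errfi1 did not pass. Only for Egfr did the groups not overlap, which held for 17.2% of all genes. Against wildtype, Egfr alone passed in tumors (14.1% of all genes, 9.65% higher and 4.48% lower). Tumor and wildtype arrays did not overlap for 2 of the 5 genes, Egfr and Errfi1, and for 13.6% of all genes. None of the 5 passed between adjacent and wildtype tissue, where limma called 0.0% of genes and 2.8% had an unadjusted p below 0.05, 0 of these 5 among them. Those groups overlapped for all 5 genes, and did not for 2.12% of all genes. With array weights limma called 1691 genes there. The median change of the 5 genes between tumor and adjacent tissue was 0.04, the same as the median of all 19938 genes.

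**Figure D1:**
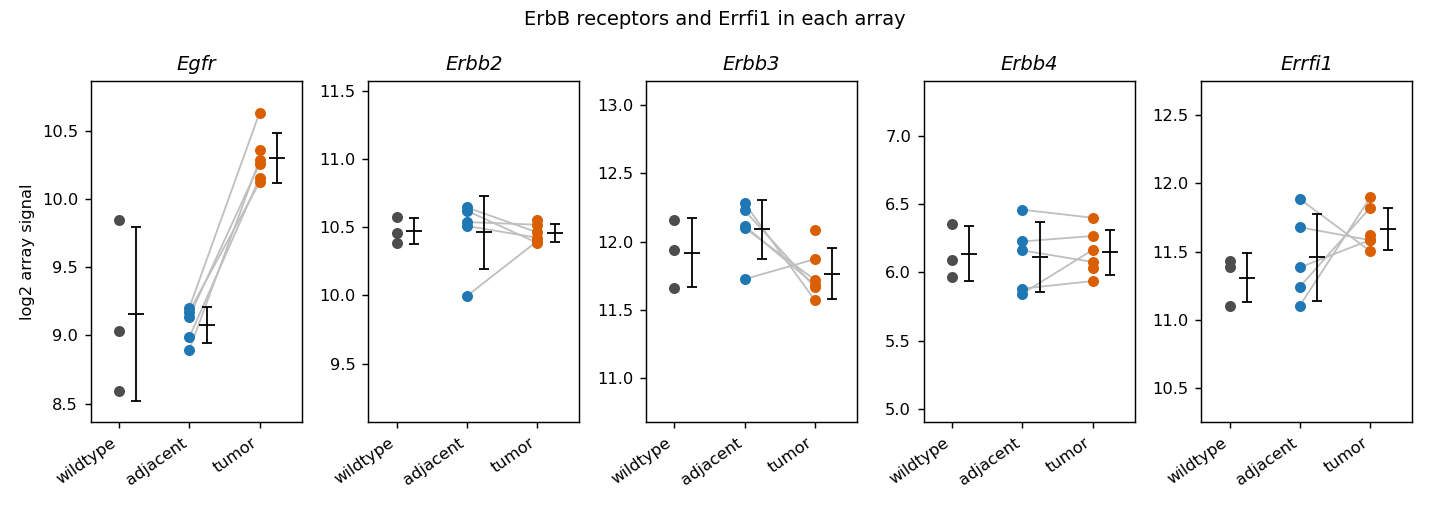
Log2 array signal of the 5 genes in each of the 14 arrays (points), with the mean and SD of each group beside them and grey lines joining adjacent tissue and tumor of the same mouse. The panels share 1 span of the log2 axis. All 6 tumors lie above all 5 adjacent samples for Egfr, while tumor and adjacent tissue overlap for the other 4 genes.

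Egfr encodes the receptor for EGF, TGF-alpha, amphiregulin, betacellulin and epiregulin. Its signal in the 6 tumors ran from 10.12 over a median of 10.27 to 10.63. In adjacent replicates 1 to 5 it was 9.17, 8.89, 9.20, 9.14 and 8.98. In the wildtype arrays it was 9.85, 9.03 and 8.59. Tumors formed a tight group above every other array, and the wildtype mice were spread more widely than either null group, with wildtype replicate 1 lying between the tumors and the remaining non-tumor arrays. In the same mouse the tumor exceeded its adjacent tissue in 5 of 5 pairs, by 0.95 in the mouse of adjacent replicate 1 up to 1.43 in that of adjacent replicate 3. The fitted change was 1.22 ± 0.14 (adjusted p = 1.68e-05), from 9.08 ± 0.13 in adjacent tissue to 10.30 ± 0.18 in tumors. It ranked 486th from the most raised of the 19938 genes. Across 24 alternative settings this change stayed between 1.14 and 1.26 and passed in every one of them.

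Markers of several cell types moved with Egfr. All 4 gastric pit markers rose in tumors, with a median change of 6.12 and array means of 12.1 to 14.1 against 6.52 to 8.14 in adjacent tissue. Of 5 mast cell markers 3 rose and 0 fell, with a median of 1.77 and array means of 8.58 to 9.72 against 6.20 to 7.63. The fibroblast marker mean was 9.23 to 9.94 in tumors and 8.73 to 9.15 in adjacent tissue, and 6 of its 8 genes rose in tumors and 0 fell. Enterocyte markers moved the other way, with array means of at most 11.6 in tumors against 13.3 to 13.9 in adjacent tissue, with 7 of 8 lower and 0 higher. The part of these shifts in the Egfr value was not tested. In bulk tissue, fewer cells of a type and less RNA per cell cannot be told apart.

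Against wildtype, Egfr was higher in tumors by 1.14 ± 0.20 (adjusted p = 0.00248), and the groups did not overlap, as for 13.6% of all genes. The size depended on wildtype replicate 1: without it the difference was 1.49 ± 0.15 (adjusted p = 1.87e-05), and without wildtype replicate 3, the lowest array, it was 0.86 ± 0.18 (adjusted p = 0.0185). The pit and mast cell marker levels of wildtype replicate 1 are given above, and their part in its Egfr signal was not tested. Within mice whose ID begins with F, where that array is the only wildtype one and is assumed to vary like the other groups, the difference was 0.41 ± 0.19 (adjusted p = 0.671). Within mice whose ID begins with B it was 1.53 ± 0.18 (adjusted p = 0.000512). The labels do not say what the letter stands for. Against the wildtype arrays that carry acinar transcripts alone it was 1.08 ± 0.27 (adjusted p = 0.066), in a fit that also left out adjacent arrays lacking them. Leaving out only wildtype replicate 2 compares tumors with the same wildtype arrays. The difference there was 1.08 ± 0.24 and passed (adjusted p = 0.0235).

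Adjacent null tissue and wildtype duodenum differed in Egfr by -0.08 ± 0.21, with an interval from -0.52 to 0.37. An absence of change is not shown by this interval, which admits differences of up to 0.698-fold downward and 1.29-fold upward. The sign turned without wildtype replicate 1 (0.27 ± 0.15, adjusted p = 0.576), and without wildtype replicate 3 the difference was -0.36 ± 0.19 (adjusted p = 1.00). Within ID letter F, where wildtype replicate 1 is the only wildtype array, it was -0.80 ± 0.20 (unadjusted p = 0.0066, adjusted p = 0.331), and within letter B 0.29 ± 0.18 (adjusted p = 0.691). The order of the Egfr means was therefore tumor above wildtype and adjacent tissue, and the last 2 did not differ beyond their spread.

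The promoter windows of Egfr, the receptor that rose, and of its close relative Erbb2, which lies on the same chromosome and did not pass, are given for comparison. They run from 250 bases before to 50 bases after the start of the transcript (RefSeq, GRCm38.p6, plus strand), and of the 5 genes 4 had such a window. The windows were searched on both strands for 5 motifs, and matches are in capitals. These were a GC box, spelled GGGCGG. The second was a TATA box, TATAAA. The third was an AP-1 site, TGANTCA. The fourth was a cAMP response element, spelled TGACGTCA. The fifth was an E-box, CACGTG. The Egfr window is chr11:16751953-16752252 and the Erbb2 window chr11:98412234-98412533.
Egfr: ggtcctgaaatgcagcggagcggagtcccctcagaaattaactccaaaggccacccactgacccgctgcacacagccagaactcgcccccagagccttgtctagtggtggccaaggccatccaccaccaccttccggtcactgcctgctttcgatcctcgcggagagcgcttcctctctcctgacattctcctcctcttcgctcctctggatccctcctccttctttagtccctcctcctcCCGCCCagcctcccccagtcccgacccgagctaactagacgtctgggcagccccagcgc
Erbb2: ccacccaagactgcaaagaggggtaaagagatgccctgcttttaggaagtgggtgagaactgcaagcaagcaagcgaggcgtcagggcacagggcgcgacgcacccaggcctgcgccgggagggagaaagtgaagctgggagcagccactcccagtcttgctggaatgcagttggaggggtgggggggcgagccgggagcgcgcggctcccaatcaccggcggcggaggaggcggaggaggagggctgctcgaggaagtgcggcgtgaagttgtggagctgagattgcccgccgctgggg
The Egfr window held 1 GC box, on the minus strand and starting 9 bases before the transcript start, and none of the other motifs. The Erbb2 and Erbb4 windows held none of the 5 motifs. A GC box was present in 35.7% of all 32851 windows of this length, a TATA box in 13.6%, an AP-1 site in 7.81%, a cAMP response element in 1.79% and an E-box in 7.15%. G and C made up 62.3% of the Egfr window and 66% of the Erbb2 window. These matches describe the letters of the windows and were not related to the array values.

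Erbb2 encodes the receptor without a ligand of its own. It was at 10.47 ± 0.10 in wildtype tissue, 10.46 ± 0.27 in adjacent tissue and 10.46 ± 0.07 in tumors. The tumors ranged only from 10.38 to 10.56, the narrowest spread of any of the 5 genes in any group. Among adjacent samples, replicates 1, 3, 4 and 5 were at 10.64, 10.54, 10.62 and 10.51, and replicate 2 stood apart at 9.99. The change between tumor and adjacent tissue was -0.01 ± 0.09 (adjusted p = 0.951), with an interval from -0.20 to 0.18, so a change of more than about 1.13-fold upward or 0.868-fold downward lies outside it. Without adjacent replicate 2 the change was -0.13, and it did not pass there either (adjusted p = 0.132). Tumor minus adjacent tissue was -0.24 to -0.02 in 4 of 5 pairs, and 0.40 in the mouse of adjacent replicate 2. The sign of these small values turned in several settings. The cluster shared with Sympk, which was not tested, was lower in the tumor in 5 of 5 pairs. Neither comparison with wildtype passed, at -0.02 ± 0.13 for tumors and -0.0039 ± 0.13 for adjacent tissue.

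Erbb3 encodes the neuregulin receptor that recruits PI3K. In adjacent replicates 1 to 5 it was at 12.23, 11.72, 12.10, 12.28 and 12.11. The 6 tumors ran from 11.57 through a median of 11.70 to 12.08. The wildtype arrays were at 11.66, 12.16 and 11.93. Most tumors lay below most adjacent samples, but the groups overlapped, since adjacent replicate 2 was low and tumor replicate 1 was high. The fitted change was -0.35 ± 0.11 (adjusted p = 0.0272), and Erbb3 was lower in the tumor in 4 of 5 pairs (-0.71 to -0.38). In the fifth, the mouse of adjacent replicate 2, it was higher by 0.15.

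The Erbb3 call was not firm. It ended without a mouse term (-0.32, adjusted p = 0.0741) and with mouse as a fixed term over the 5 shared mice (-0.39, adjusted p = 0.0544). It also ended when any 1 of adjacent replicates 1, 3, 4 or 5 or tumor replicates 2, 4, 5 or 6 was left out, with adjusted p-values up to 0.0837. It held without adjacent replicate 2 (-0.46, adjusted p = 0.00178), without tumor replicate 1 and without tumor replicate 3. Within mice of ID letter B the change was -0.51 ± 0.10 (adjusted p = 0.00337), and within letter F -0.13 ± 0.19 (adjusted p = 0.757). The direction was downward in all 24 settings. In the 4 non-tumor arrays without acinar transcripts Erbb3 was at 12.10 to 12.28, and in the 4 with them at 11.66 to 12.23. The part of acinar tissue in the Erbb3 values was not tested.

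Against wildtype, Erbb3 differed by -0.15 ± 0.16 in tumors (adjusted p = 0.611, and -0.38 with adjusted p = 0.0098 under array weights) and by 0.19 ± 0.16 in adjacent tissue (adjusted p = 0.998). Its means thus ran from adjacent over wildtype to tumor, and neighbours in that order did not differ beyond their spread. ERBB3 is also made by glial cells of the gut wall. Enteric glia markers (4 genes) averaged 6.65 to 6.85 in tumors, 6.37 to 6.54 in adjacent tissue and 6.50 to 6.75 in wildtype tissue. Against adjacent tissue 1 of 4 was higher in tumors and 0 lower. That gene was S100b (1.04), while Sox10, Gfap and Cdh19 did not pass (0.0091, 0.11 and -0.080). The part of glial cells in the Erbb3 values was not tested.

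Erbb4 encodes a neuregulin and betacellulin receptor. It was at 6.14 ± 0.20 in wildtype tissue, 6.11 ± 0.26 in adjacent tissue and 6.15 ± 0.17 in tumors. Its mean of 6.13 lay below the median of all gene means, 7.69, and without a detection call the files do not say whether this signal is above background. All values fell between 5.84 and 6.46 and the groups overlapped throughout. The change between tumor and adjacent tissue was 0.04 ± 0.10 (adjusted p = 0.831) and turned to -0.04 when arrays were centred on their median. With array weights, a setting that called 1691 genes between adjacent and wildtype tissue, Erbb4 passed there at -0.34 (adjusted p = 0.045).

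Errfi1 encodes the feedback inhibitor, an immediate-early gene that receptor signalling, stress and glucocorticoids induce. Its signal was 11.43, 11.39 and 11.10 in the wildtype arrays. In adjacent replicates 1 to 5 it was 11.10, 11.88, 11.38, 11.68 and 11.24. The 6 tumors had a lowest value of 11.50, a median of 11.60 and a highest of 11.90. Every tumor exceeded every wildtype array, while adjacent samples spanned both groups. Tumor and wildtype arrays lay apart, in either direction, for 13.6% of all genes. The tumors lay above wildtype by 0.36 ± 0.18 (adjusted p = 0.223), an interval from -0.02 to 0.74, so the absence of overlap did not come with a call. With array weights this difference passed (0.34, adjusted p = 0.0368).

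Within a mouse, Errfi1 moved both ways. The tumor exceeded adjacent tissue by 0.79, 0.20 and 0.58 in the mice of adjacent replicates 1, 3 and 5, and the difference was -0.38 and -0.09 in those of adjacent replicates 2 and 4. The fitted change was 0.21 ± 0.13 (adjusted p = 0.244). Adjacent replicate 2 had the highest Errfi1 among adjacent samples and the lowest Egfr, Erbb2 and Erbb3. Without it the Errfi1 change was 0.34 and passed (adjusted p = 0.0322), so 1 array decides this call. Without adjacent replicate 1, the lowest of the group, it was 0.11 (adjusted p = 0.605). Adjacent and wildtype tissue differed by 0.15 ± 0.18 (adjusted p = 0.998).

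The annotation gives Errfi1 2 promoter windows. The downstream one, at chr4:150854820-150855119 (RefSeq, GRCm38.p6, plus strand), is shown because it held more of the searched motifs, a choice made after the matches were seen.
Errfi1: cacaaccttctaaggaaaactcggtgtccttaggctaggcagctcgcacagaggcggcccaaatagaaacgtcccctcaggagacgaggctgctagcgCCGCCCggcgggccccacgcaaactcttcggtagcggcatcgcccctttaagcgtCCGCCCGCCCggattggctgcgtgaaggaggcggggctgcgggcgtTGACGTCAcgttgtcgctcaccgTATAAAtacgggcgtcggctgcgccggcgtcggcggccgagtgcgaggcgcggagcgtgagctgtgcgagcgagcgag
This window held 3 GC boxes, of which 2 overlap, a cAMP response element starting 51 bases before the transcript start and a TATA box starting 28 bases before it. The upstream window held none of the 5 motifs. Whether these letters act as sites was not tested.

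**Figure D2:**
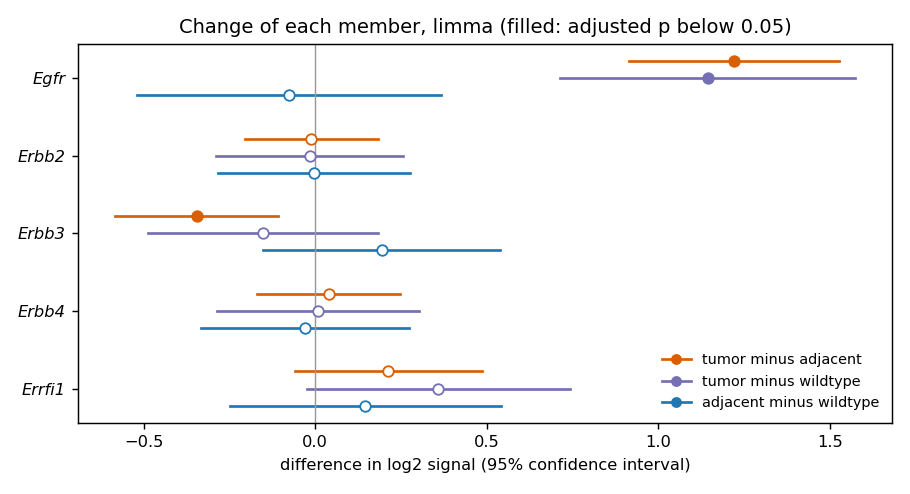
Difference in log2 signal for each of the 5 genes in the 3 comparisons, as points with 95% confidence intervals from the limma fit, and filled where the adjusted p was below 0.05. Egfr stands at 1.22 and 1.14 in the comparisons with tumors, Erbb3 at -0.35 against adjacent tissue, and the intervals of the other genes and comparisons include 0.

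Some of the 5 genes moved by different amounts in the same mice, which is a description, since no pair passed after adjustment. The change of Egfr exceeded that of Erbb2 by 1.24 ± 0.18 (SD over 5 mice), that of Erbb3 by 1.60 ± 0.24, that of Erbb4 by 1.16 ± 0.24 and that of Errfi1 by 0.99 ± 0.63, in 5 of 5 mice each. Erbb2 exceeded Erbb3 by 0.36 ± 0.08, again in 5 of 5 mice. The 5 mice cannot give an exact two-sided sign-flip permutation p under 0.0625, which is what each of these 5 differences reached. That value was 0.125 after adjustment over the 10 pairs of genes. The other 5 pairs had exact p-values from 0.125 to 0.562. The gap between Erbb2 and Erbb3 was the more even one: it ran from 0.25 to 0.48, although both genes separately varied in sign between mice. The gap between Egfr and its inhibitor was the least even of those with Egfr, from 0.15 in the mouse of adjacent replicate 1 to 1.77 in that of adjacent replicate 2.

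Genes whose profile over the 14 arrays was most like each member were picked by Pearson's r, which is a description over arrays that share groups and mice. The changes and spreads of genes so picked follow largely from the pick. For Egfr these were Myof, a membrane repair protein (r = 0.984), Pea15a, a scaffold that holds ERK in the cytoplasm (0.983), and Mpzl1 (0.981). All 3 rose in tumors against adjacent tissue, by 2.06 ± 0.21, 1.21 ± 0.14 and 1.34 ± 0.14. Their wildtype SDs of 0.63 to 0.88 were wide like that of Egfr, at 0.63. For Erbb3 the closest were Tmem144 (r = 0.919), Hook2 (0.908) and the docking protein Gab2 (0.906), which fell by 0.89 ± 0.19, 0.58 ± 0.12 and 0.39 ± 0.11. For Erbb2 they were Cirbp (0.878), the ephrin Efnb2 (0.875) and Chmp6 (0.869), and for Errfi1 Dpy19l1 (0.798), Rnf39 (0.792) and Fem1a (0.778). Of these 6 only Rnf39 passed between tumor and adjacent tissue, at 0.55 ± 0.13. For Erbb4 they were Inhbc (0.906), Xirp1 (0.900) and Olfr474 (0.896), none of which passed.

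Genes of the pathway and around it were taken from 11 lists that hold 227 measured genes, none on more than 1 list. The lists of immediate-early genes, of glucocorticoid and stress response genes and of other receptor families reach beyond the ErbB pathway. Over all 11 lists, 67 rose and 43 fell in tumors against adjacent tissue, 48.5% of them against the 31.7% of all genes. The 31.7% includes dim genes: with low genes left out of the fit, 5138 of 9969 genes passed. The lists were also chosen with earlier results known, so no enrichment is read from these shares. Both backgrounds apply to the count of every list below, those near the 31.7% and those above it, and no list is read as standing out. Among the genes that bind ErbB receptors from outside, 6 of 10 ligands rose and 0 fell, with a median change of 0.60 against 0.04 for all genes. Betacellulin (Btc), a ligand of EGFR and ERBB4, rose by 2.20 ± 0.13 (adjusted p = 1.36e-07). Epiregulin (Ereg) rose by 1.19 ± 0.24 (adjusted p = 0.00138) and Nrg4, a ligand of ERBB4, by 0.87 ± 0.25 (adjusted p = 0.0166). Of 11 sheddases, which cut ligands free, and their partners, 6 rose and 2 fell (median 0.40). Adam9 rose by 1.59 ± 0.20 and Adam10 by 0.72 ± 0.12, while Frmd8, which stabilises the iRhom and ADAM17 sheddase complex, fell by 0.94 ± 0.10. Fewer passed against wildtype, where 14.1% of all genes did. Of the 10 ligands 3 rose in tumors and 0 fell, and of the 11 sheddases and partners 1 rose and 1 fell. Nrg4 and Adam10 did not pass there (adjusted p = 0.0724 and 0.0708).

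Of 26 negative regulators of the receptors, 12 rose and 5 fell, and their median change was 0.24. Lrig1, disrupted in both tissues, is on this list and is 1 of the 12. The largest changes were in Sh3kbp1, the CIN85 adaptor of the ubiquitin ligase CBL (1.97 ± 0.33), the ubiquitin ligase Wwp1 (1.05 ± 0.18) and decorin (Dcn, 0.97 ± 0.18), a matrix proteoglycan that binds EGFR and is also a fibroblast marker. Sh3kbp1 varied in wildtype tissue with an SD of 1.42. Errfi1, for comparison, was at 0.21 ± 0.13. Against wildtype 10 of the 26 rose in tumors and 1 fell, which was Lrig1 itself (-0.96 ± 0.24, adjusted p = 0.0162). In that comparison 14.1% of all genes passed.

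Of 26 adaptors and scaffolds 9 rose and 6 fell (median 0.15). The membrane mucin Muc1 rose by 3.93 ± 0.93, the hyaluronan receptor Cd44 by 2.92 ± 0.23 and Muc4, a mucin that binds ERBB2, by 1.13 ± 0.15. Muc1 was uneven, with an SD of 2.70 in adjacent tissue. Against wildtype 3 of these 26 rose in tumors and 0 fell, and Muc1 did not pass (2.65 ± 1.31, adjusted p = 0.217). Of 31 endocytosis and sorting genes 7 rose and 3 fell, close to the 31.7% of all genes that passed. Their median of 0.03 was also close to that of all genes. The epsin Epn3 rose by 2.14 ± 0.22, the clathrin adaptor subunit Ap2a2 fell by 0.67 ± 0.09 and the sorting nexin Snx2 rose by 0.52 ± 0.10.

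Downstream kinases moved both ways. Of 13 measured genes of the Ras and ERK branch, 2 rose and 3 fell (median 0.12). The scaffold Ksr1 fell by 1.08 ± 0.12, the kinase Rps6ka3 rose by 0.81 ± 0.13 and the Ras GTPase activator Rasal1 rose by 0.47 ± 0.07. Of 19 genes of the PI3K branch, 3 rose and 3 fell (median 0.02), close to the 31.7% of all genes that passed. The Akt phosphatase Phlpp2 fell by 2.14 ± 0.26, and the regulatory subunit Pik3r3 and the kinase Akt1 rose by 1.27 ± 0.17 and 0.72 ± 0.09. Of 18 genes of the Src, Stat and phospholipase C branches, 3 rose and 7 fell (median -0.13), with Fyn (-0.98 ± 0.11), Jak2 (-0.91 ± 0.14) and the exchange factor Vav2 (-0.80 ± 0.12) leading. Of the genes named here, Rasal1 and Vav2 did not pass in tumors against wildtype (adjusted p = 0.193 and 0.0709). Fyn and Jak2 are also made by lymphocytes. All 6 T and NK cell markers fell, from an array mean of 10.2 to 10.6 in adjacent tissue to 7.29 to 8.77 in tumors, and their part in these values was not tested.

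Genes with which Errfi1 shares a known mode of induction split between tumor and adjacent tissue. Among 25 immediate-early genes 11 rose and 2 fell (median 0.28), led by Fosl1 (1.54 ± 0.21), Egr1 (1.35 ± 0.20) and Dusp1 (1.29 ± 0.23). Among 13 glucocorticoid and stress response genes 7 fell and 1 rose (median -0.62). Sgk1 fell by 1.47 ± 0.18, Tsc22d3 by 1.11 ± 0.20 and Fkbp5 by 1.09 ± 0.23. The fall was not seen as clearly against wildtype, where 1 of the 13 rose in tumors and 1 fell (median -0.25). Sgk1, Tsc22d3 and Fkbp5 did not pass there (adjusted p = 0.118, 0.355 and 0.440). In adjacent against wildtype tissue the 13 had a median of 0.37 with no call. Of the 25 immediate-early genes 6 rose in tumors against wildtype and 0 fell, where 14.1% of all genes passed. The 35 receptor tyrosine kinases of other families counted 7 that rose and 5 that fell (median 0.06), near the 31.7% of all genes. Mertk, a receptor that macrophages use to clear dying cells, fell by 2.46 ± 0.19, Ret rose by 1.88 ± 0.16 and Csf1r, a macrophage receptor, fell by 1.02 ± 0.17. The macrophage marker mean, to which Csf1r itself belongs, was 8.48 to 8.92 in tumors and 9.04 to 9.78 in adjacent tissue. No gene of the 11 lists passed between adjacent and wildtype tissue. Lrig1 came close, at -1.84 ± 0.25 (adjusted p = 0.0511), and its groups did not overlap.

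**Figure D3:**
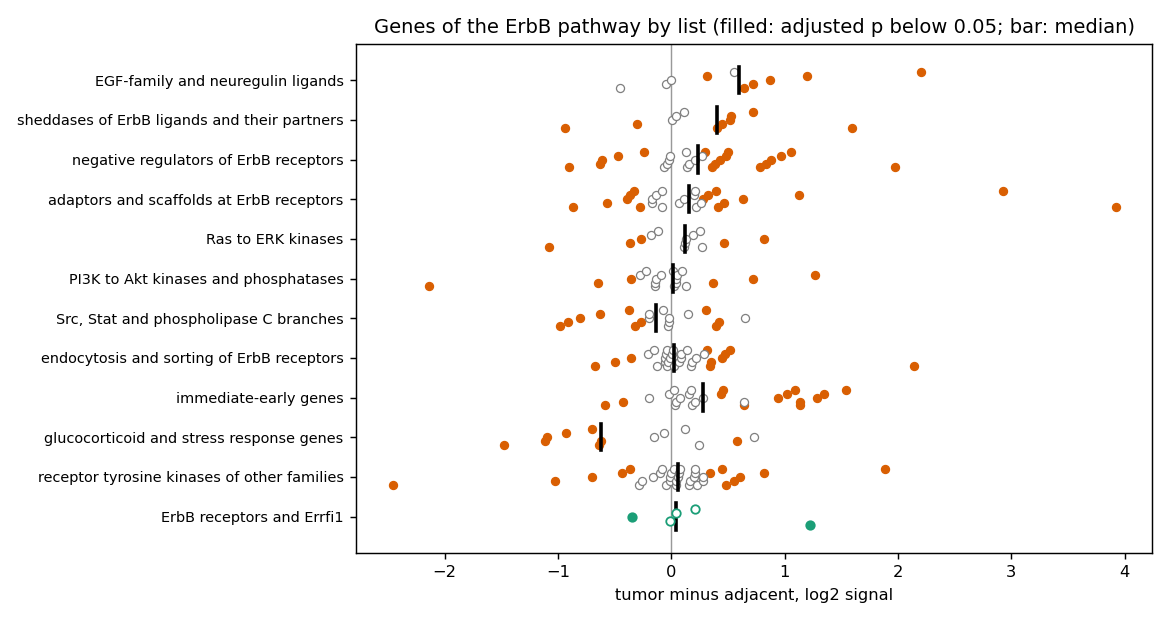
Change in log2 signal between tumor and adjacent tissue for each gene of the 11 lists and for the 5 genes of interest (bottom row, green). Points are filled where the adjusted p was below 0.05 and the bar is the list's median, which is 0.60 for the ligands, -0.62 for glucocorticoid and stress response genes and 0.04 for the 5 genes.

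Lists were also counted with other sets of arrays, a step added after seeing the data. Without the 4 arrays that carry acinar transcripts 61 of the 227 genes rose and 46 fell, where 6027 of all genes passed. Against the adjacent arrays that carry them 27 rose and 14 fell, and within mice of ID letter F 25 and 8, where 2181 and 1719 of all genes passed in turn against 6313 with all arrays. In that last set, 8 of 25 immediate-early genes rose and 1 of 10 ligands did.

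**Figure D4:**
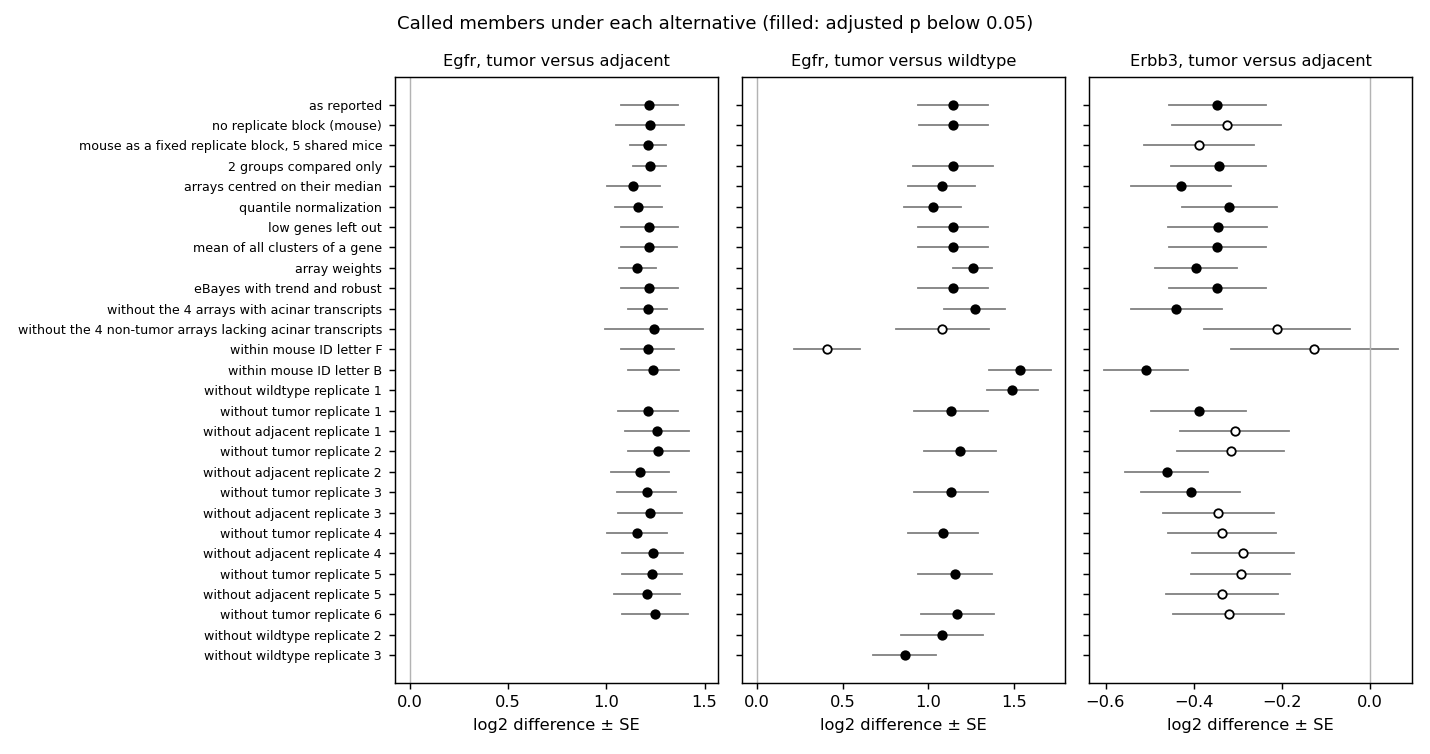
Change in log2 signal ± SE for the called genes under each alternative, filled where the adjusted p was below 0.05. Egfr passed in all settings against adjacent tissue and in all but 2 against wildtype, while Erbb3 passed in 12 of 24.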

How the data were processed

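Total RNA was labelled with biotin and hybridised to Affymetrix Mouse Gene 1.0 ST arrays, per the labels' protocols. The authors deposited log2 signal for 35556 transcript clusters in 14 arrays (2.87 to 14.8, the scale inferred from this range). The submitters' processing notes list Affymetrix Expression Console 1.1 and the mm9 build. How background was corrected is not given in the sources used here, nor is the normalization. Medians of the arrays were 7.11 to 7.29, and the values entered the fits as deposited. The number of arrays limits the precision.

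Clusters with 1 symbol (21789) were kept, those with several (1621) or none (12146) were not. Symbols were updated by gene identifier through a GRCm38.p6 table (21698 matched), and the brightest cluster per gene was used. Differences were tested with limma 3.58.1 (R 4.3.3) on all 14 arrays, with group means, mouse as a random block (correlation 0.334) from the labels, moderated two-sided tests and Benjamini-Hochberg adjustment over 19938 genes. Mice are separate animals. The fit was tested on simulated data. Unequal changes were tested by exact sign flips over 5 mice.

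The 5 genes, the 11 lists (242 entries, 15 without a gene in the table), the 12 marker lists (74 entries, 5 without) and the alternatives were chosen with earlier results of these data known. Named from each list were the 3 genes with the largest change past the threshold between tumor and adjacent tissue, and for likeness the 3 with the highest r. Alternatives were no mouse block, a fixed block, only the groups compared, median centring, quantile normalization, a filter on low genes, the mean of a gene's clusters, array weights, a trended robust prior, each array left out, the acinar split and the ID letter.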

Additional observations from a re-analysis of the deposited data

Results flagged for a closer look

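Erbb2 in adjacent replicate 2, at 9.99, lay farther below the other 4 adjacent samples than their spread allows by Dixon's criterion for 5 values. The gap to the nearest was 0.79 of the group's range. Chance alone marks about 1 in 20 such groups, and 10 groups were examined. The same array had the lowest Egfr (8.89) and Erbb3 (11.72) and the highest Errfi1 (11.88) of the adjacent group, and carried the highest acinar marker mean (14.2). Without it the Errfi1 change between tumor and adjacent tissue passed, and the Erbb2 change did not.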

How the results depend on the processing

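Egfr against adjacent tissue passed in all 24 alternatives. Erbb3 against adjacent tissue and the count of called genes among the 5 did not hold as firmly. With no replicate block for mouse Erbb3 was at -0.32, and with mouse as a fixed replicate block at -0.39, and 1 gene was called each time. With array weights 3 genes were called for tumors against wildtype and 1 for adjacent tissue against wildtype, where Egfr was at 0.10. Erbb4 in tumors against wildtype was then at -0.24. Centring arrays turned Erbb4 to -0.041 against adjacent tissue and -0.058 against wildtype, and Erbb2 between adjacent and wildtype tissue to 0.011. Quantile normalization turned Erbb4 between adjacent and wildtype tissue to 0.054. Erbb4 was too dim for the filter on low genes and has no value there.

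Without the 4 arrays with acinar transcripts Erbb4 in tumors against wildtype was at -0.21 and Egfr between adjacent and wildtype tissue at 0.058. Without the 4 non-tumor arrays lacking them, tumors against adjacent tissue gave Erbb2 at 0.13, Erbb3 at -0.21, Erbb4 at -0.042 and 1 call. Tumors against wildtype gave Egfr at 1.08, Erbb2 at 0.036 and 0 calls, and Erbb4 was at 0.16 between adjacent and wildtype tissue. Within ID letter F, tumors against adjacent tissue gave Erbb2 at 0.14, Erbb3 at -0.13, Erbb4 at -0.059 and 1 call. Tumors against wildtype gave Egfr at 0.41, Erbb2 at 0.088, Erbb3 at 0.22 and 0 calls, and between adjacent and wildtype tissue Egfr was at -0.80 and Erbb4 at 0.22. Within letter B, Erbb4 in tumors against wildtype was at -0.057, and between adjacent and wildtype tissue Egfr was at 0.29 and Erbb2 at 0.039. The causes of these shifts were not tested, and the splits leave fewer arrays.

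Leaving out 1 array at a time, tumors against adjacent tissue gave 1 to 3 calls, Erbb2 at -0.13 to 0.033, Erbb3 at -0.46 to -0.29, Erbb4 at -0.027 to 0.11 and Errfi1 at 0.11 to 0.34. Against wildtype, tumors gave Erbb2 at -0.059 to 0.036 and Erbb4 at -0.078 to 0.12. Adjacent against wildtype tissue gave Egfr at -0.36 to 0.27, Erbb2 at -0.049 to 0.11 and Erbb4 at -0.12 to 0.080. Leaving out 1 mouse at a time, the change of Erbb2 minus that of Erbb4 ran from -0.19 to 0.041, and that of Erbb4 minus that of Errfi1 from -0.31 to 0.013. Over all genes, 6313 passed for tumors against adjacent tissue, and 2181 without the non-tumor arrays lacking acinar transcripts and 1719 within letter F. For tumors against wildtype 2817 passed, 9525 with array weights, 504 and 14 in those same splits, and 940 to 4526 leaving out 1 array at a time.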

Other observations

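The transcript cluster that the annotation assigns to both Erbb2 and Sympk did not follow the cluster assigned to Erbb2 alone. Its signal was 9.77 ± 0.57 in wildtype tissue (n = 3), 10.96 ± 0.52 in adjacent tissue (n = 5) and 8.86 ± 0.64 in tumors (n = 6). The tumor was lower in 5 of 5 pairs, with differences from -2.59 to -1.62, while the cluster of Erbb2 alone changed by -0.24 to 0.40 in the same mice. It was not among the genes tested, and which transcript it reads is not known here.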
